A study of Sus scrofa with 34 samples.

Results

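The livers described here came from 11 piglets, 5 fed oxidized oil together with a phytogenic feed additive (OO + PFA) and 6 fed the control diet. They were chosen by the source names given to the libraries, and they are 11 of the 24 liver libraries and of the 34 libraries of the series. The animals were weaned crossbred piglets (Landrace × Large White sows, Pietrain boars) of both sexes, kept on their diet for 28 days with free access to feed. The control diet was a basal feed with fresh rapeseed oil. In the OO + PFA diet, rapeseed oil that had been heated in a fryer, as a model of oxidative stress, was added to this feed at the expense of all other ingredients, so that the diet held more fat and more energy than the control diet, and effects of added fat and of oxidation cannot be told apart. The feed also held Digestarom, a blend of plant extracts and synthetic compounds whose main ingredients include menthol, carvacrol, methyl salicylate and the oils of oregano and caraway. The other liver libraries came from pigs fed PFA alone (n = 6) or oxidized oil alone (OO, n = 6). Pigs of a diet shared 1 pen, and effects of pen and diet cannot be told apart. A sixth OO + PFA pig, OP-77, was left out, as in the study. Pigs are named by the diet (C for control, OP for OO + PFA) and their number, and values of single OO + PFA pigs are given in the order OP-79, OP-98, OP-105, OP-126 and OP-137.

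Dietary lipids reach the liver as fatty acids, which bind the nuclear receptor PPAR-alpha. The receptor raises the transcription of genes for fatty acid uptake, for the carnitine shuttle and for beta-oxidation in mitochondria and peroxisomes, and oxidized oils are known to activate it in the liver of pigs. The liver also adjusts glucose use, fat synthesis and the breakdown of amino acids to what is fed, under the control of insulin, glucagon and glucocorticoids.

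The measurement was RNA-Seq of poly(A) RNA, as read pairs counted on each Ensembl gene. Between 21861728 and 31252476 read pairs per OO + PFA pig were counted on genes, and between 23109323 and 42092064 per control pig. In all, 13831 genes had enough counts to be tested. Levels of single genes are given as CPM, counts scaled by the total of a library on the tested genes and by its TMM factor. For the sums of marker genes below, CPM were scaled by the total of read pairs on all genes, without TMM. Library titles had 2 forms, PigLiv (4 OO + PFA and 4 control pigs) and PL (1 and 2 pigs), and what the forms stand for is not given in the sources used here. Y-linked genes had counts in 3 of 5 OO + PFA and 3 of 6 control pigs. Pig OP-77 stood apart, where the 10 genes with the most read pairs held 48.3% of them, and 23.8% to 26.8% in the other OO + PFA pigs. Among control pigs C-80 stood apart, with 34.84% of read pairs on the 10 top genes (25.16% to 28.07% in the others) and 19.02% of read pairs on no gene (11.48% to 15.62%), and without it 575 genes were called higher and 128 lower. The defining hepatocyte markers were all detected, and the summed level of the 10 hepatocyte genes was 108600 to 140000 CPM in OO + PFA and 88480 to 178400 CPM in control pigs. Of these 10 genes 1 had a positive log2 fold change, with a median of -0.24, and 1 was called lower. Summed levels of 8 bile duct genes were 80.5 to 141.3 CPM in OO + PFA and 49.0 to 75.2 CPM in control pigs, without overlap. Of 7 bile duct genes tested, 5 had a positive log2 fold change and none was called, and 1 was called higher after GC correction. The part of these cells in the results was not tested. The sums of 7 other marker lists (macrophage, stellate, endothelial, T and NK, B, neutrophil and erythroid genes) overlapped between the diets. In bulk tissue, fewer cells of a type and less RNA per cell cannot be told apart.

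CPT1A, the entry step of the carnitine shuttle, was 2.64 times as high in the OO + PFA livers as in control livers, and other genes of fatty acid oxidation were higher with it. PFKFB3 and PKLR of glycolysis and THRSP, a regulator of fat synthesis, were lower, while PFKL, also of glycolysis, was higher. In all, 565 genes were higher in OO + PFA than in control livers and the rest of the 702 genes called were lower, at an adjusted p of at most 0.05 (quasi-likelihood test of edgeR, Benjamini-Hochberg adjustment, with SE for the standard error of log2 fold changes below). These are 4.09% and 0.991% of the genes tested, the background for the counts of list members below. With a fold change of at least 2, 433 genes (3.13%) were higher and 20 (0.145%) lower. The median log2 fold change of all genes was -0.01. DESeq2's Wald test called 928 higher and 442 lower genes. Among pigs with PigLiv titles alone 167 genes were higher and 70 lower, and among those with PL titles 11 and 1, where the single OO + PFA pig was taken to vary like the other diets. Both counts depended on single pigs. The count of higher genes was 144 without C-71, 231 without C-85, 140 without C-100, 171 without C-110, 156 without OP-79, 323 without OP-98, 243 without OP-126 and 276 without OP-137. Lower genes numbered 47, 63, 51, 46, 72, 75 and 47 without the first 7 of these pigs, and 79 without OP-105.

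The genes called higher were GC-rich. In exons of Sscrofa11.1, the 464 higher genes with a GC value had a median GC content of 64.1%, against 51.5% for 112 lower genes and 51.3% for all 11096 tested genes with a value. Of genes with at least 65% GC, 29.7% were called higher and none of 659 lower, and their median log2 fold change was 1.11. Of genes under 40% GC, 0.0900% were called higher and 0.270% lower, with a median of -0.06. The GC slope of a library, the rise of centred log2 CPM per 10% GC over all these genes, was 0.49, 0.17, 0.04, 0.16 and 0.24 in the OO + PFA pigs. In control pigs it lay between -0.20 and 0.08, so that OP-105 overlapped with the controls and OP-79 was the highest of both diets. The mean slopes were 0.22 ± 0.17 (SD, n = 5) and -0.08 ± 0.14 (SD, n = 6), a difference of 0.30 log2 units per 10% GC (exact permutation test, two-sided, p = 0.0130). Among pigs with PigLiv titles the difference was 0.35 (exact permutation test, p = 0.0571, where the smallest possible is 0.0286). The 6 libraries of pigs fed OO had slopes of -0.35, -0.15, -0.38, 0.30, 0.42 and 0.37, so steep positive slopes were not particular to OO + PFA livers.

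**Figure D1:**
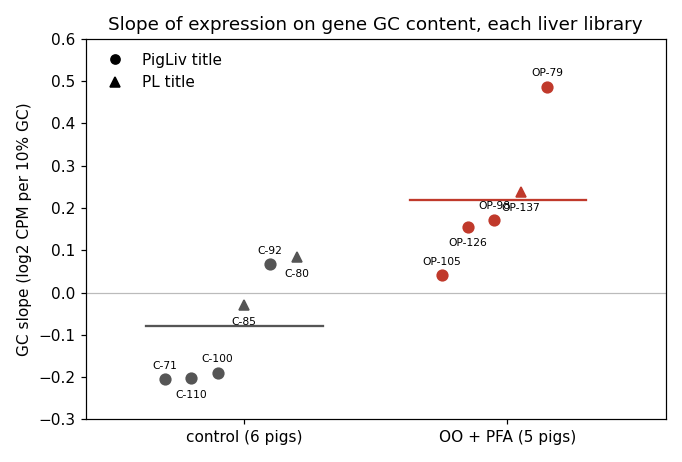
Slope of log2 CPM on the exonic GC content of genes (y axis, log2 units per 10% GC) in each of 6 control and 5 OO + PFA liver libraries, with the mean of each diet as a line and the form of the library title as the symbol. OO + PFA pigs lie between 0.04 and 0.49 and control pigs between -0.20 and 0.08.

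After a fitted curve of each library on GC was removed, 388 genes (3.5% of 11096) were higher and 375 (3.38%) were lower. Of the 464 higher genes with a GC value, 282 (2.54% of the genes with a value) were also called after the correction, and 182 were not. These 182 genes had a median GC content of 65.5%. Of 112 lower genes, 108 (0.973%) were also called. A further 267 genes were called lower and 106 higher after the correction alone, with median GC contents of 60.7% and 49.4%. No gene was called in opposite directions. Calls still depended on GC after the correction. Of genes with at least 65% GC, 13.1% were called higher (median log2 fold change 0.15). Of those with 60 to 65% GC, 7.83% were called lower (median -0.09). What set the GC slope of a library was not tested, and values after the correction are given beside the results below.

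**Figure D2:**
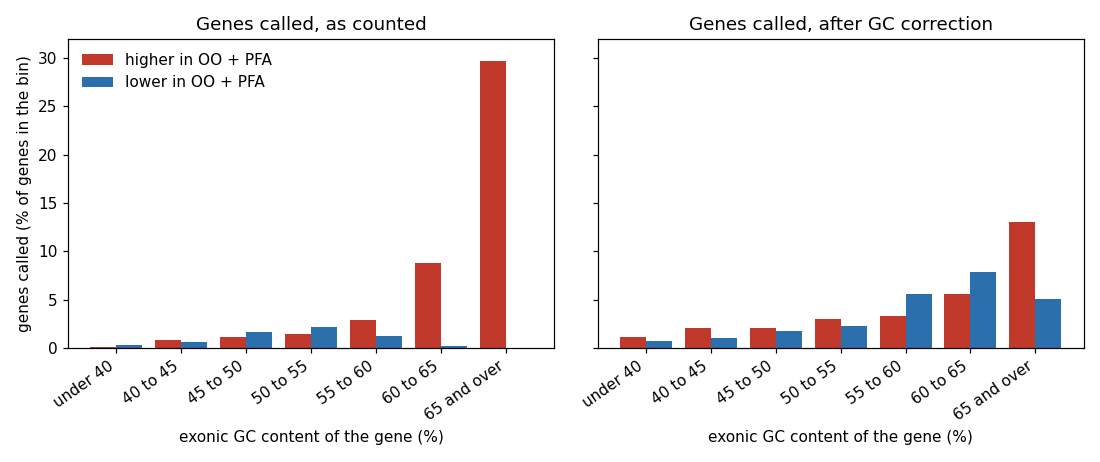
Share of genes called higher (red) and lower (blue) in OO + PFA than in control livers by exonic GC content of the gene (x axis, %), on the counts as deposited (left) and after GC correction (right), for 11096 genes. On the left the share called higher reaches 29.7% in genes of at least 65% GC, and after correction it is 13.1%.

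Mitochondrial beta-oxidation was the list with the most calls in 1 direction. Of 26 genes tested for the carnitine shuttle and beta-oxidation, 12 were higher and none was lower, with a median log2 fold change of 0.51, and all 12 were also called after GC correction (median 0.50). Fits that left out 1 pig called 8 to 10 genes of the list. CPT1A (ENSSSCG00000012880, chromosome 2, 4250642 to 4293914 on Sscrofa11.1), which links fatty acids to carnitine on the outer mitochondrial membrane, was at 159.7, 203, 199, 168 and 241 CPM in OO + PFA and at 57.1 to 88.4 CPM (median 74.1) in control pigs. All OO + PFA pigs lay above all controls, with a log2 fold change of 1.40 (SE 0.15, adjusted p = 1.29e-05). CPT2, which releases the fatty acid inside the mitochondrion, was at 108, 196, 127, 116 and 143 CPM, against 35.3 to 78.1 CPM (median 61.6) in control pigs. These values did not overlap either, and the log2 fold change was 1.20 (SE 0.19, adjusted p = 0.00109). ACADVL, the dehydrogenase for very long acyl chains, was at 176, 195, 204, 208 and 230.0 CPM, above the control range of 72.6 to 109 CPM (median 90.5), with a log2 fold change of 1.16 (SE 0.16, adjusted p = 3.04e-04). For ACADL, which acts on long chains, the values were 54.6, 74.7, 95.8, 100.0 and 80.8 CPM and 26.3 to 51.3 CPM (median 38.0) in control pigs, with a log2 fold change of 1.12 (SE 0.21, adjusted p = 0.00522). The 2 subunits of the trifunctional protein, HADHA and HADHB, rose by 0.83 and 0.73, and the carnitine carrier SLC25A20 by 0.52 on the log2 scale. The electron acceptor pair ETFB and ETFDH rose by 0.97 and 0.51, and MLYCD, which breaks down the CPT1 inhibitor malonyl-CoA, by 1.44. CRAT and HSDL2 rose by 1.06 and 0.71. Of the 11 fits that left out 1 pig, each called HADHA, HADHB, MLYCD and CRAT, while 5 called ETFDH (log2 fold change 0.44 to 0.58), 2 HSDL2 (0.62 to 0.80), 1 ETFB (0.91 to 1.07) and 0 SLC25A20 (0.44 to 0.56).

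**Figure D3:**
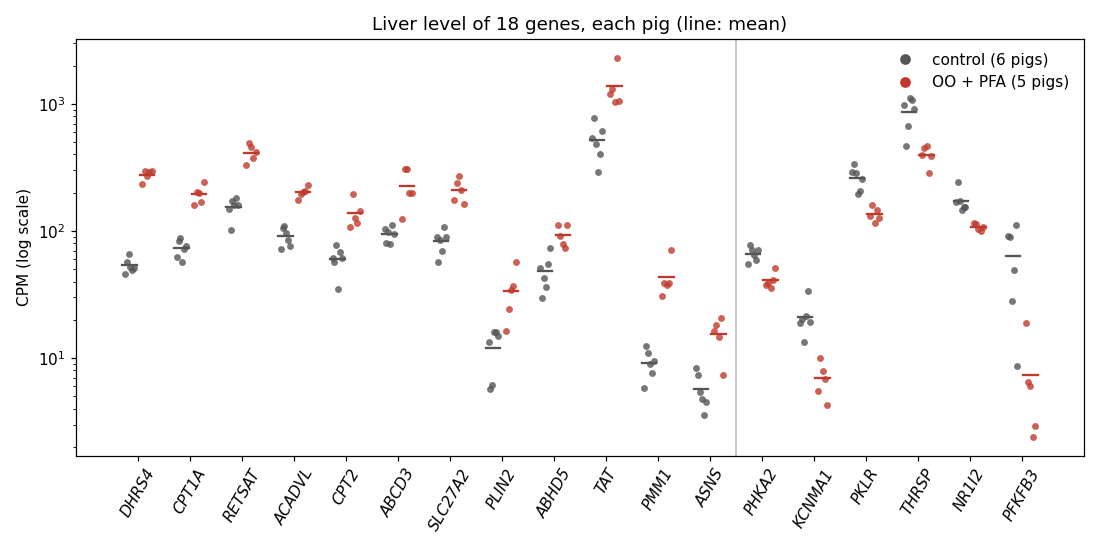
Level (y axis, CPM on a log scale) of 12 genes higher and 6 genes lower in OO + PFA livers, with 1 point per pig (grey, 6 control pigs; red, 5 OO + PFA pigs) and lines at the means. In DHRS4, CPT1A, RETSAT, ACADVL, CPT2, ABCD3, SLC27A2, PLIN2, ABHD5, TAT and PMM1 every OO + PFA pig is above every control pig, in PHKA2, KCNMA1, PKLR and NR1I2 every OO + PFA pig is below, and for ASNS, THRSP and PFKFB3 the diets overlap.

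The peroxisome shortens very long fatty acids. Of 32 genes of peroxisomal beta-oxidation and peroxisome formation, 6 were higher and 1 was lower, and the median of 0.12 was close to that of all genes. DHRS4 (ENSSSCG00000002013, chromosome 7, 75242121 to 75255594 on Sscrofa11.1), a peroxisomal carbonyl and retinal reductase, had the lowest p of all genes, at 234, 298, 270.2, 291 and 295 CPM in OO + PFA pigs. Control pigs were at 46.1 to 66.3 CPM (median 51.4), far below, and the log2 fold change was 2.37 (SE 0.20, adjusted p = 4.82e-07). SLC27A2, which activates very long fatty acids, was at 174, 238, 271, 211 and 162 CPM in OO + PFA and 57.1 to 108 CPM (median 87.8) in control pigs, with a log2 fold change of 1.34 (SE 0.19, adjusted p = 3.28e-04). ABCD3, a carrier of branched acyl-CoA into the peroxisome, was at 124, 305, 305, 198 and 200.5 CPM, where OP-79 was the nearest to the controls at 79.6 to 112 CPM (median 96.4). The log2 fold change was 1.26 (SE 0.21, adjusted p = 0.00210). PEX11A, which promotes the division of peroxisomes, rose by 0.81 (SE 0.17) and ACOX3 by 0.70, and the import factor PEX26 fell by 0.42 on the log2 scale. These 6 were also called after GC correction, and ACAA1 (0.52) was not. Of the 11 fits that left out 1 pig, 3 called ACOX3 (log2 fold change 0.58 to 0.78), 1 PEX26 (-0.46 to -0.34) and 1 ACAA1 (0.41 to 0.59).

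Fatty acid activation went both ways. Of 19 genes for uptake, binding and activation, 2 were higher (SLC27A2 and ACSL1) and 1 was lower (ACSL4). ACSL1, the main acyl-CoA synthetase of the liver, was at 2408, 2043, 2309, 1744 and 1666 CPM, against 898 to 1344 CPM (median 1278) in control pigs, without overlap and with a log2 fold change of 0.75 (SE 0.17, adjusted p = 0.0189). Its call was lost without OP-79 (log2 fold change 0.68 to 0.82 over all such fits). ACSL4, which prefers arachidonic acid, was at 64.5, 160.1, 76.3, 47.7 and 35.1 CPM and in control pigs at 99.9 to 461 CPM (median 178). The diets overlapped, with a log2 fold change of -1.46 (SE 0.39, adjusted p = 0.0340), and the call was lost without C-71, C-85, C-100, C-110, OP-79, OP-105, OP-126 or OP-137 (log2 fold change -1.92 to -1.04 over all such fits). Of 8 genes of ketone body synthesis and use, 1 was higher, AACS, which spends ketone bodies on lipid synthesis, by 0.64, with overlap between the diets. After GC correction AACS was not called (adjusted p = 0.0527), nor was it without C-71, C-80, C-85, C-100, OP-98, OP-105 or OP-126 (log2 fold change 0.55 to 0.77 over all such fits).

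Genes of lipid droplets were also higher. Of 23 genes of lipid droplets and lipases, 8 were higher and none was lower (median 0.40), and 5 of the 8 were also called after GC correction (median 0.24). PLIN2, the coat protein of liver lipid droplets, was at 16.4, 24.5, 34.1, 36.8 and 57.2 CPM, and control pigs at 5.70 to 16.2 CPM (median 14.2). The lowest OO + PFA pig, OP-79, was just above the highest control, and the log2 fold change was 1.48 (SE 0.28, adjusted p = 0.00664). ABHD5 (ENSSSCG00000011297, chromosome 13, 27006331 to 27053760 on Sscrofa11.1), the activator of the triglyceride lipase PNPLA2, was at 112, 91.2, 78.7, 73.8 and 110.5 CPM, against 29.6 to 73.5 CPM (median 47.1) in control pigs. OP-126 was the nearest, just above the highest control, and the log2 fold change was 0.95 (SE 0.20, adjusted p = 0.0137). G0S2, an inhibitor of the same lipase, was at 24.02, 14.9, 24.7, 42.6 and 63.8 CPM in OO + PFA pigs, all above the controls at 2.07 to 6.14 CPM (median 4.24). Its log2 fold change of 3.02 (SE 0.52, adjusted p = 0.00278) was 2.16 after GC correction. PNPLA2 itself rose by 2.07 and PLIN3 by 0.77. PLIN1, PLIN5 and MGLL, with 1.82, 1.33 and 1.00, were not called after GC correction. Fits that left out 1 pig called 4 to 8 genes of the list. The call of PNPLA2 was lost without C-71 or C-100 (log2 fold change 1.95 to 2.19), that of PLIN5 without C-100 (1.21 to 1.46) and that of PLIN3 without C-71, C-100, C-110, OP-79, OP-98, OP-126 or OP-137 (0.62 to 0.89).

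Hepatokines and their regulators formed another list with calls in 1 direction. Of 22 genes of PPAR-alpha, its partners and hepatokines, 6 were higher and none was lower (median 0.48), and 3 of the 6 were called both ways. GDF15, a stress hormone that lowers appetite, was low in all pigs, at 1.14, 1.16, 0.666, 1.81 and 3.12 CPM in OO + PFA and 0.1104 to 0.403 CPM (median 0.165) in control pigs. The diets did not overlap, and the log2 fold change was 2.93 (SE 0.53, adjusted p = 0.00432). CREB3L3, a liver transcription factor active in fasting, was at 420.2, 311, 313, 284 and 459 CPM, against 177 to 265 CPM (median 231) in control pigs, without overlap and with a log2 fold change of 0.67 (SE 0.14, adjusted p = 0.0166). TRIB3, a kinase-like regulator of insulin signalling, rose by 1.46 (SE 0.38) with overlap between the diets, and was not called without C-85, C-100, C-110, OP-79 or OP-126 (log2 fold change 0.99 to 1.81 over all such fits). FGF21, a hormone of fasting, was at 15.2, 26.7, 31.5, 33.1 and 60.5 CPM and 4.41 to 18.2 CPM (median 8.96) in control pigs, with overlap through OP-79 and a log2 fold change of 1.78 (SE 0.45, adjusted p = 0.0297). Its call was lost after GC correction (adjusted p = 0.0811) and without C-85, C-100, C-110, OP-126 or OP-137 (log2 fold change 1.45 to 2.06 over all such fits). The corepressor NCOR1 rose by 0.66 on the counts as deposited and was not called after the correction, and 1 of the 11 fits without 1 pig called it (log2 fold change 0.58 to 0.71). Such fits called 2 to 7 genes of the list. After GC correction 1 gene was lower, the receptor partner RXRB, by 0.48.

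Promoters of 3 genes are shown because each holds a motif of a regulator of these pathways within the 250 bases before the RefSeq gene start, read on Sscrofa11.1 in the direction of transcription. The motifs, in capitals, were 2 copies of AGGNCA with 1 base of any kind between them for the direct repeat bound by PPAR-alpha, TTGCATCA for the element bound by ATF4 with C/EBP, and TGACGTCA for the cyclic AMP response element, each searched on both strands. ABHD5 has a direct repeat, FGF21 an ATF4 element and ARG2 a cyclic AMP element, and no shown window holds a second of these motifs. HS3ST2, also a named gene, holds a cyclic AMP element 83 to 76 bases before its gene start, and its window is not shown.
ABHD5 (chr13:27006081-27006330, plus strand): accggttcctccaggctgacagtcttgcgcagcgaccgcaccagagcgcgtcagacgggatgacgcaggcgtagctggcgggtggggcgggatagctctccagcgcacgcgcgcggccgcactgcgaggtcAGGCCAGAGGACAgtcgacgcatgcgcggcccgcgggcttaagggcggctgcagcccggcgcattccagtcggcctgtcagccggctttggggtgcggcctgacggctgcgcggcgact
FGF21 (chr6:54082403-54082652, plus strand): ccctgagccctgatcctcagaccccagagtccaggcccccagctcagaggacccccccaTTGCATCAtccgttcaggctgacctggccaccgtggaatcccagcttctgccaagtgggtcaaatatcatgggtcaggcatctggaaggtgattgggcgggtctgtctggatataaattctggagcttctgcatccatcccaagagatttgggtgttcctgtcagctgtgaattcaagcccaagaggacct
ARG2 (chr7:91343737-91343986, plus strand): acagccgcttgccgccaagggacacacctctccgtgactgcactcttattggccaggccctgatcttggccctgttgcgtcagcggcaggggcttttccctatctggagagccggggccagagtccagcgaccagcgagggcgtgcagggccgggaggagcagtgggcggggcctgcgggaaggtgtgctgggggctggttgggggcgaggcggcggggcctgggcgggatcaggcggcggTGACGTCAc
The direct repeat was found in 28 of 11095 windows (0.252%) and in 2 of 464 windows of genes called higher (0.431%). For the ATF4 element the numbers were 54 of 11095 (0.487%) and 1 of 464 (0.216%), and for the cyclic AMP element 246 of 11095 (2.22%) and 12 of 464 (2.59%). A match describes the letters in this window and is not a shown site of binding.

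ASNS and DDIT4, targets of the stress factor ATF4, were higher, and the chaperone pair DNAJB1 and HSPA8 was lower. Of 37 genes of endoplasmic reticulum stress and chaperones, 4 were higher and 2 lower (median -0.21). ASNS, asparagine synthetase, was at 16.5, 18.1, 14.6, 20.8 and 7.38 CPM, and control pigs at 3.57 to 8.43 CPM (median 5.10). OP-137 lay within the control range, and the log2 fold change was 1.45 (SE 0.22, adjusted p = 0.00104). DDIT4, an inhibitor of mTORC1, was at 149, 112, 86.9, 166 and 119.9 CPM, without overlap with 23.02 to 76.3 CPM (median 50.8) in control pigs, and with a log2 fold change of 1.36 (SE 0.28, adjusted p = 0.0118). The heat-shock co-chaperone DNAJB1 was at 38.3, 30.9, 30.6, 24.4 and 34.0 CPM and 34.7 to 71.5 CPM (median 52.8) in control pigs, with overlap through OP-79 and a log2 fold change of -0.75 (SE 0.15, adjusted p = 0.0118). Its partner HSPA8 fell by 0.78, and both were also called after GC correction. ATF5 and HSF1 rose by 1.22 and 1.22 on the counts as deposited and were not called after correction. HSPA8 was called in 2 of the 11 fits without 1 pig (log2 fold change -0.90 to -0.65) and HSF1 in 3 (1.10 to 1.34), and such fits called 3 to 6 higher and 1 to 2 lower genes of the list.

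In glucose metabolism PFKFB3, PKLR and PPP1R3B were among the genes lower, and PC, PFKL, PCK1, PCK2 and IRS2 were higher. Of 50 genes tested, 5 were higher and 4 lower, with a median of -0.05. PFKFB3, which makes the activator of phosphofructokinase, had the largest fall of the called genes that have a symbol. It was at 19.1, 6.53, 6.02, 2.42 and 2.92 CPM in OO + PFA and 8.70 to 111 CPM (median 69.9) in control pigs. The lowest control pig lay below OP-79, and the log2 fold change was -3.09 (SE 0.61, adjusted p = 0.00958). PKLR, the pyruvate kinase of the liver, was at 131, 161, 116, 146 and 127 CPM, and control pigs at 194 to 337 CPM (median 270.2), without overlap and with a log2 fold change of -0.94 (SE 0.19, adjusted p = 0.0108). PPP1R3B, a glycogen-targeting subunit, fell by 1.39 with overlap between diets, and the call was lost without C-71, C-85, C-92, C-100, OP-79, OP-98, OP-126 or OP-137 (log2 fold change -1.55 to -1.18 over all such fits). These 3 genes were also called after GC correction.

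PC, pyruvate carboxylase, which starts gluconeogenesis in the mitochondrion, was at 671, 417, 259, 331 and 674 CPM in OO + PFA and 135 to 194 CPM (median 168) in control pigs, without overlap and with a log2 fold change of 1.51 (SE 0.27, adjusted p = 0.00330) that was 0.85 after GC correction. IRS2, the insulin receptor substrate that rises in fasting, was at 12.6, 18.3, 11.8, 16.1 and 14.2 CPM, all far above the controls at 1.52 to 2.43 CPM (median 2.23), with a log2 fold change of 2.78 (SE 0.51, adjusted p = 0.00522). PFKL rose by 1.91 and was also called after the correction. PCK1 and PCK2, the carboxykinases of gluconeogenesis, rose by 1.42 and 0.73 and were not called after it. Of the 11 fits without 1 pig, 4 called PCK1 (log2 fold change 0.88 to 1.605) and 6 PCK2 (0.67 to 0.81), and these fits gave 3 to 5 higher and 2 to 4 lower genes of the list. PHKA2, a subunit of the kinase that starts glycogen breakdown, had the second lowest p of the genes that fell and have a symbol, at 37.8, 39.3, 35.6, 41.5 and 50.8 CPM against 55.3 to 77.7 CPM (median 67.8) in control pigs. The diets did not overlap, and the log2 fold change was -0.70 (SE 0.11, adjusted p = 0.00144).

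Of 30 glucocorticoid-responsive and immediate early genes, 5 were higher and none was lower, with a median of 0.66 (0.49 after GC correction), and 4 of the 5 were called both ways. Leaving out single pigs gave 2 to 11 calls. TAT, tyrosine aminotransferase, was at 1204, 1309.5, 1036, 2301 and 1059 CPM, above all controls at 291 to 776 CPM (median 509.6), with a log2 fold change of 1.42 (SE 0.25, adjusted p = 0.00310). JUNB, an early response factor, was at 20.9, 30.7, 7.89, 15.1 and 24.2 CPM and 1.93 to 5.31 CPM (median 2.58) in control pigs, without overlap and with a log2 fold change of 2.76 (SE 0.56, adjusted p = 0.0118). IER2 rose by 2.11, a call lost without C-71, C-100, C-110, OP-79 or OP-137 (log2 fold change 1.90 to 2.27 over all such fits). KLF2 (1.13) was not called after GC correction (adjusted p = 0.850) and not without C-71, C-85, C-100, C-110, OP-79 or OP-98 (log2 fold change 0.92 to 1.27 over all such fits).

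Among 56 genes of the urea cycle and amino acid breakdown, 5 were higher and 3 lower (median -0.06), and 3 and 3 of these were called both ways. Both arginases were higher. ARG1, the urea cycle enzyme of the liver, was at 267, 589, 248, 585 and 418 CPM and 188 to 250.3 CPM (median 214) in control pigs. OP-105 lay within the control range, with a log2 fold change of 0.97 (SE 0.22, adjusted p = 0.0189), and the call was lost without OP-126 (log2 fold change 0.81 to 1.11 over all such fits). ARG2, the mitochondrial form, was at 23.5, 27.8, 20.6, 33.9 and 11.6 CPM, against 4.21 to 11.3 CPM (median 7.10), without overlap and with a log2 fold change of 1.71 (SE 0.30, adjusted p = 0.00361). GSTZ1, of tyrosine breakdown, fell by 0.49 (SE 0.12), without overlap between diets, a call lost without C-85 or OP-126 (log2 fold change -0.55 to -0.44 over all such fits). ACMSD and GLDC fell by 1.16 and 0.65. Of the 11 fits without 1 pig, 6 called ACMSD (log2 fold change -1.33 to -1.01) and 2 GLDC (-0.78 to -0.54), and such fits called 2 to 6 higher and 1 to 3 lower genes of the list. After GC correction the urea cycle enzymes ASL and NAGS were among 7 lower genes of the list, by 0.67 and 0.89, from -0.11 and -0.31 on the counts as deposited.

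Fat synthesis gave opposite medians by processing. The median of 22 genes was 0.17 on the counts as deposited and -0.20 after GC correction, with 1 higher and 2 lower genes before and 4 lower genes after. THRSP, a regulator of lipogenesis, was at 397, 451, 468, 286 and 387 CPM, and control pigs at 465 to 1115 CPM (median 945). The highest OO + PFA pig overlapped with the lowest control, and the log2 fold change was -1.13 (SE 0.24, adjusted p = 0.0137). ACACA, acetyl-CoA carboxylase, fell by 0.84 (SE 0.21, adjusted p = 0.0267), a call lost without C-71, C-85, C-110, OP-79, OP-126 or OP-137 (log2 fold change -0.97 to -0.68 over all such fits). AGPAT2 rose by 1.18, and was not called after the correction or in any of the 11 fits that left out 1 pig. MLXIPL, the glucose-sensing factor ChREBP, and DGAT1 were lower only after correction, by 1.06 and 0.74. ELOVL2, which elongates polyunsaturated fatty acids, was at 27.4, 127, 165, 103 and 107 CPM and 10.9 to 55.8 CPM (median 33.5) in control pigs. OP-79 was far below the other OO + PFA pigs and within the control range, and the log2 fold change was 1.65 (SE 0.36, adjusted p = 0.0172).

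Cholesterol, bile acid and lipoprotein lists held 1 call each, all higher. These were MVD of 32 genes of cholesterol synthesis and uptake, NR0B2 of 19 genes of bile acid synthesis and transport and APOA4 of 16 apolipoprotein genes, and all 3 were also called after GC correction. The bile acid list held 4 lower genes after the correction alone, the receptors FGFR4 and NR1H3, the sterol hydroxylase CYP27A1 and the bile acid CoA ligase SLC27A5, by 0.77, 0.68, 0.41 and 1.38 on the log2 scale, from -0.40, -0.42, -0.21 and -0.48 before it. DESeq2 called 1 higher and 1 lower gene of that list. NR0B2, the repressor SHP, was at 22.1, 11.9, 39.5, 9.06 and 58.0 CPM and 2.82 to 10.4 CPM (median 6.60) in control pigs, with overlap and a log2 fold change of 2.15 (SE 0.49, adjusted p = 0.0189), and was not called without OP-137 (log2 fold change 1.71 to 2.38 over all such fits). MVD rose by 1.91, a call lost without C-71, C-85, C-100, C-110, OP-79 or OP-126 (log2 fold change 1.81 to 2.02 over all such fits). APOA4 was at 17.5, 47.7, 23.5, 16.8 and 675 CPM in OO + PFA pigs, so that OP-137 carried most of the difference from 3.99 to 42.4 CPM (median 10.3) in control pigs. Its log2 fold change was 3.32 and fell to 0.76 without OP-137, and the call was lost without C-71, C-85, C-100, C-110 or OP-137.

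**Figure D4:**
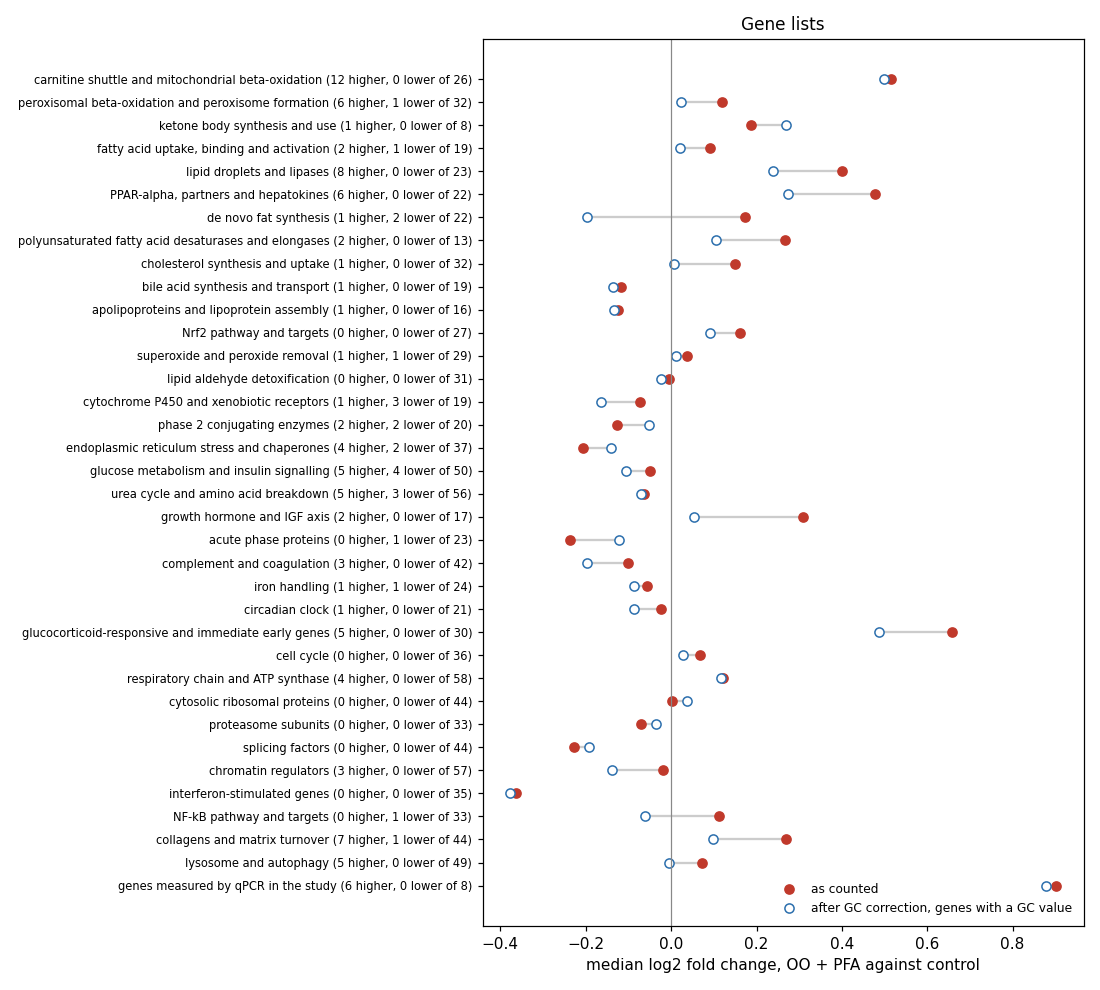
Median log2 fold change of OO + PFA against control (x axis) for 36 gene lists, on the counts as deposited (red) and after GC correction in genes with a GC value (blue, open), with the number of genes called in each direction of those tested beside the name. Beta-oxidation keeps its median (0.51 and 0.50), while that of fat synthesis moves from 0.17 to -0.20.

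The xenobiotic receptors PXR and CAR were lower. Of 19 cytochrome P450 genes and xenobiotic receptors tested, 3 were lower and 1 was higher. NR1I2, the receptor PXR, was at 115, 114, 104, 99.5 and 107 CPM, below all controls at 146 to 242 CPM (median 161), with a log2 fold change of -0.68 (SE 0.15, adjusted p = 0.0166). NR1I3, the receptor CAR, was at 60.4, 49.4, 47.5, 42.7 and 64.8 CPM, against 70.8 to 99.9 CPM (median 81.0), also without overlap, with a log2 fold change of -0.65 (SE 0.15, adjusted p = 0.0189). CYP2E1 fell by 0.58, a call lost without C-71, C-85, C-100, OP-98, OP-126 or OP-137 (log2 fold change -0.64 to -0.52 over all such fits), and the P450 reductase POR rose by 0.95 and was not called after GC correction (adjusted p = 0.0555) or without C-71, C-100, C-110, OP-79, OP-98 or OP-126 (log2 fold change 0.82 to 1.06 over all such fits). Only 13 of the 19 genes had a GC value, so the GC check of this list as a whole is void.

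Of 20 phase 2 enzymes, 2 were higher and 2 lower. SULT1C2, a sulfotransferase, had the lowest p of the genes that fell and have a symbol, at 4.10, 7.18, 6.79, 6.57 and 6.01 CPM in OO + PFA and 9.995 to 24.96 CPM (median 15.2) in control pigs, without overlap and with a log2 fold change of -1.38 (SE 0.21, adjusted p = 8.49e-04). SULT1B1, another sulfotransferase, was at 5.87, 11.13, 16.7, 11.3 and 13.96 CPM and 3.97 to 6.86 CPM (median 4.87) in control pigs, with overlap and a log2 fold change of 1.22 (SE 0.22, adjusted p = 0.00445). No GC value was available for either, and members of this family share sequence, so reads that align to more than 1 of them may not be counted. Of the 10 called genes with a symbol that fell the most, 5 were outside the lists, KCNMA1, FAM187B, TAFA2, CITED1 and SULT1C3. TAFA2 was not called without C-71, C-85, C-92, C-100, C-110, OP-79, OP-98, OP-126 or OP-137 and SULT1C3 not without C-71, C-85, C-100, C-110, OP-79 or OP-137. KCNMA1, a potassium channel, was at 5.55, 9.97, 7.95, 6.91 and 4.30 CPM against 13.5 to 33.9 CPM (median 19.8), without overlap and with a log2 fold change of -1.61 (SE 0.28, adjusted p = 0.00278). TENT5C, a poly(A) polymerase, fell by 0.81 (SE 0.15, adjusted p = 0.00585). NNMT was at 576, 55.7, 30.3, 72.7 and 33.0 CPM in OO + PFA and 15.5 to 57.8 CPM (median 32.7) in control pigs, so that OP-79 carried most of the difference. It rose by 2.20 with overlap between diets, and its call was lost without C-71, C-80, C-85, C-92, C-100, C-110, OP-79 or OP-126 (log2 fold change 0.52 to 2.47 over all such fits).

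Antioxidant lists held few calls. Of 27 genes of the Nrf2 pathway, none was called by edgeR or by DESeq2, 4 had an unadjusted p under 0.05, and the median was 0.16. HMOX1, heme oxygenase, had a log2 fold change of 0.75 (SE 0.29, adjusted p = 0.118) and MAFG of 0.93 (adjusted p = 0.114). Of 29 genes of superoxide and peroxide removal, SOD1, cytosolic superoxide dismutase, was higher, at 471, 484, 492, 543 and 565 CPM against 311 to 390.4 CPM (median 365) in control pigs. The diets did not overlap, with a log2 fold change of 0.52 (SE 0.13, adjusted p = 0.0280), and the call was lost without C-100, OP-126 or OP-137 (log2 fold change 0.48 to 0.56 over all such fits). PRDX6 was the lower gene of the list, with a log2 fold change of -0.55, a call lost without C-71, C-85, C-100, C-110, OP-79, OP-98, OP-105 or OP-126 (log2 fold change -0.61 to -0.52 over all such fits). Of 31 genes of lipid aldehyde detoxification, none was called by edgeR or DESeq2, and 3 had an unadjusted p under 0.05. After GC correction edgeR called 2, the aldehyde dehydrogenase ALDH16A1 higher and ALDH1L1 lower.

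Lists of matrix, coagulation and growth genes lost calls with GC correction. Of 44 genes of collagens and matrix turnover, 7 were higher and 1 lower (median 0.27), and 2 of the 7 were also called after it (median 0.10). COL6A2 and COL18A1, at 2.09 and 2.38 before, were at 1.27 and 0.98 after it, and the call of COL18A1 was lost without C-71, C-100, C-110 or OP-79 (log2 fold change 2.27 to 2.55 over all such fits). COL5A1 went from 1.59 to 0.36 (adjusted p = 0.481). Its call on the counts as deposited was lost without C-71 or OP-79 (log2 fold change 1.43 to 1.81 over all such fits). Fits that left out 1 pig called 1 to 9 higher genes of the list. MMP19 was lower both ways (-0.70 and -0.68), a call lost without C-71 or C-110 (log2 fold change -0.78 to -0.62 over all such fits). Coagulation factors F7 and F10 went from 1.5 and 1.32 to 0.43 and 0.35 and were not called after correction, while complement factor CFD was called both ways (2.15 and 1.49). Of 42 complement and coagulation genes these 3 were higher, and the calls of F7, F10 and CFD each held in 1 of the 11 fits that left out a pig. IGFALS, a subunit of the complex that carries IGF in blood, went from 3.30 to 1.89 (adjusted p = 0.0614). IGFBP6 went from 1.56 to 0.94 (adjusted p = 0.0177). They were the 2 calls among 17 genes of the growth hormone and IGF axis. None of the 11 fits that left out 1 pig called IGFALS (log2 fold change 2.99 to 3.50), and all called IGFBP6. After GC correction IGF1 was called higher and STAT5A lower in this list, and 2 lower genes were called in the complement and coagulation list.

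Of 49 lysosome and autophagy genes, 5 were higher and none was lower, and all 5 (ULK1, ULK2, GAA, CTSD and WIPI2) were also called after GC correction. ULK1, the kinase that starts autophagy, was at 117, 158, 177, 235 and 304 CPM in OO + PFA, above all controls at 38.7 to 84.3 CPM (median 63.0), with a log2 fold change of 1.70 (SE 0.32, adjusted p = 0.00643). Fits that left out 1 pig called 1 to 6 genes of the list, whose median was 0.07 before and -0.004 after correction. The call of ULK2 was lost without C-71, C-85, C-100, C-110, OP-79, OP-126 or OP-137 (log2 fold change 0.83 to 0.96 over all such fits) and that of WIPI2 without C-71, C-100, C-110, OP-79, OP-98, OP-126 or OP-137 (0.51 to 0.59). The calls of GAA were lost without C-71, C-100, C-110 or OP-79 (log2 fold change 1.26 to 1.42 over all such fits) and those of CTSD without C-71, C-85, C-100, C-110, OP-79, OP-98, OP-126 or OP-137 (log2 fold change 1.36 to 1.63 over all such fits). TP53INP2, which acts in autophagosome formation, was at 28.0, 54.7, 35.1, 45.8 and 44.8 CPM and 14.7 to 19.2 CPM (median 17.5) in control pigs, without overlap and with a log2 fold change of 1.28 (SE 0.18, adjusted p = 2.69e-04). Of 57 chromatin regulators, 3 were higher, the methyltransferase EHMT1, the demethylase KDM6B and BRD1, by 1.05, 1.11 and 1.10, and by 0.44, 0.57 and 0.49 after correction. Of these, EHMT1 was not called without OP-79, KDM6B not without C-100 and BRD1 not without C-71, C-85, C-100, C-110, OP-79, OP-126 or OP-137.

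In iron handling, with 24 genes tested, HJV was lower and BMP6 higher, and both act on hepcidin. HJV, hemojuvelin, was at 99.9, 109.8, 104, 64.1 and 61.4 CPM, against 127 to 204 CPM (median 142) in control pigs, without overlap and with a log2 fold change of -0.76 (SE 0.16, adjusted p = 0.0139). BMP6 rose by 1.10 and had 0.17 after correction (adjusted p = 0.787), and its call was lost without C-100 or OP-126 (log2 fold change 1.01 to 1.22 over all such fits). Of 58 respiratory chain genes 4 were higher (NDUFS6, NDUFAB1, NDUFS8 and NDUFC2), 3 of them also after correction, and the median was 0.12 both ways. None of these 4 calls held in more than 2 of the 11 fits that left out a pig.

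Inflammatory lists held few calls. Of 35 interferon-stimulated genes, none was called by edgeR and 1 by DESeq2, 5 had an unadjusted p under 0.05, and 4 of the 35 were higher in OO + PFA, with a median of -0.36 (-0.38 after GC correction). OAS2, an antiviral synthetase, was at 116, 131, 119, 137.3 and 150.1 CPM and 138 to 446 CPM (median 235) in control pigs, with overlap and a log2 fold change of -0.996 (SE 0.43, adjusted p = 0.161). Of 12 T and NK cell genes 1 was higher and none was called by edgeR (1 by DESeq2, 6 at an unadjusted p under 0.05), with a median of -0.53, and their summed level was 54.6 to 86.7 CPM in OO + PFA and 50.7 to 120.9 CPM in control pigs. Their part in the interferon list was not tested. Of 33 genes of the NF-kB pathway, 1 was lower, VCAM1, by 0.98, a call lost without C-71, C-100, C-110, OP-79 or OP-126 (log2 fold change -1.11 to -0.67 over all such fits). After GC correction 3 genes of this list were lower, and DESeq2 called 3 higher genes and 1 lower. Of 23 acute phase genes, 1 was lower, ITIH1, by 1.09, a call lost without C-85, C-110, OP-79, OP-98 or OP-126 (log2 fold change -1.31 to -0.88 over all such fits).

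For lists of basic cell functions edgeR called none of 36 cell cycle genes, 44 ribosomal protein genes, 33 proteasome subunits and 44 splicing factors. DESeq2 called 2, 0, 0 and 3 of them, and 6, 6, 4 and 13 had an unadjusted p under 0.05. After GC correction edgeR called the ribosomal protein gene RPLP1 and the splicing factor PRPF31 higher and the splicing factor SF3A1 lower. The medians were 0.07, 0.00, -0.07 and -0.23. Of 21 circadian clock genes, CSNK1D alone was higher, by 1.10, and not after GC correction (0.15) or in any of the 11 fits that left out 1 pig. Of 13 genes of polyunsaturated fatty acid synthesis, ELOVL2 and LPCAT1 were higher. LPCAT1, which remodels phosphatidylcholine, had a log2 fold change of 0.83 and was not called after GC correction (adjusted p = 0.427) or without C-71, C-80, C-85, C-100, C-110, OP-79, OP-105, OP-126 or OP-137 (log2 fold change 0.59 to 0.95 over all such fits).

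Several genes of the lowest p lie outside fat oxidation. PMM1 (ENSSSCG00000000061, chromosome 5, 6964999 to 6975904 on Sscrofa11.1), a phosphomannomutase, was at 30.6, 39.2, 37.4, 39.3 and 71.4 CPM and 5.78 to 12.5 CPM (median 9.26) in control pigs, without overlap and with a log2 fold change of 2.24 (SE 0.24, adjusted p = 1.05e-05). RETSAT, retinol saturase, was at 332, 493, 455, 372 and 416 CPM, above all controls at 101.8 to 181 CPM (median 160.2), with a log2 fold change of 1.43 (SE 0.16, adjusted p = 1.42e-05). SLC1A1, a transporter of glutamate, was at 25.9, 25.1, 30.9, 49.96 and 14.9 CPM against 7.85 to 11.9 CPM (median 8.96), without overlap and with a log2 fold change of 1.62 (SE 0.22, adjusted p = 2.69e-04). RAB30, a Golgi GTPase, was at 4.89, 8.81, 8.52, 8.34 and 20.4 CPM and 2.001 to 3.62 CPM (median 2.50) in control pigs, without overlap and with a log2 fold change of 1.89 (SE 0.25, adjusted p = 1.92e-04). GABRQ, a subunit of a GABA receptor, was at 14.7, 89.0, 64.3, 72.6 and 52.7 CPM and 5.60 to 19.3 CPM (median 9.34). The diets overlapped through 1 pig, with a log2 fold change of 2.53 (SE 0.35, adjusted p = 3.04e-04). The calls of these 5 genes were also made after GC correction and held without any 1 pig.

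The called genes with a symbol that rose the most were close to silent in control livers, so they are given as counts. Genes this low in control pigs passed the filter on low counts only through other diets. Their calls in other fits of the same pigs are therefore no separate support. PIWIL2, of the piRNA pathway, had 13, 53, 43, 85 and 4 counts in the OO + PFA pigs and 0 to 2 counts in control pigs. Per read pair on genes this is a ratio of 71.7 (95% interval 27.6 to 266, exact, for counting error only), and OP-137 was near the controls. CDC42EP5 had 209, 47, 34, 73 and 65 counts against 0 to 6, and PCSK1N had 69, 21, 15, 23 and 9 against 0 to 2. In both, and per read pair also in HS3ST3B1, IER5L, CDCA4, TUSC1 and EXOSC6, OP-79, the pig with the steepest GC slope, was the highest OO + PFA pig. HS3ST3B1, IER5L, CDCA4, ABHD14A, TUSC1 and EXOSC6 had 12 to 81 counts in OO + PFA pigs and 0 to 6 in control pigs, with ratios from 14.8 (EXOSC6) to 24.1 (HS3ST3B1). All of these genes were also called after GC correction. PCSK1N (72.9% GC), IER5L (72.5%), CDC42EP5 (67.9%) and EXOSC6 (65.8%) are among the genes of at least 65% GC, of which 13.1% were still called higher after it. Of the 11 fits that left out a pig, 11 called PIWIL2, CDC42EP5, PCSK1N and TUSC1, 8 called ABHD14A, 6 IER5L, 5 EXOSC6, 1 CDCA4 and 0 HS3ST3B1. The calls of ABHD14A were lost without C-71, C-100 or C-110, those of IER5L without C-71, C-85, C-100, C-110 or OP-79 and those of EXOSC6 without C-71, C-85, C-100, C-110, OP-79 or OP-126.

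Of the 9 genes also measured by qPCR in these same livers, 6 were called in the counts, all higher. How these genes were chosen is not given in the sources used here. The paper describes NNAT and HS3ST2 as the most upregulated, so their calls are no independent result. NNAT, neuronatin, had 51, 80, 67, 31 and 34 counts in OO + PFA pigs and 0 to 13 in control pigs, a ratio of 12.3 (95% interval 8.45 to 18.4). HS3ST2, a heparan sulfate sulfotransferase, had 15, 6, 4, 7 and 14 counts against 0 to 2. CCL26, a chemokine, had 23, 12, 7, 9 and 3 counts against 0 to 6, too few to be tested. MGLL, monoglyceride lipase, had a log2 fold change of 1.00 (SE 0.26, adjusted p = 0.0320), a call lost without C-71, C-80, C-85, C-100, C-110, OP-79, OP-98, OP-105 or OP-137 (log2 fold change 0.92 to 1.12 over all such fits). FABP3 and TXNRD1 were not called, with 0.79 (SE 0.30, adjusted p = 0.114) and 0.21 (SE 0.15, adjusted p = 0.448).

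OO + PFA livers were also compared with livers of pigs fed oxidized oil without the additive, in the same fit. None of the 13831 genes (0%) was called in either direction by edgeR, where the smallest adjusted p was 0.0900 (DHRS4), and 1176 genes had an unadjusted p under 0.05. The GC slopes of the OO libraries lay between -0.38 and 0.42, a wider range than in OO + PFA or control pigs. The part of this spread in the comparison was not tested. Among the 702 genes called against control, 121 had an unadjusted p under 0.05 against OO, 71 of them higher and 50 lower in OO + PFA, against 556 higher and 620 lower over all genes, and since the 702 genes were chosen for the difference of the same OO + PFA pigs from control, their split is no result. DESeq2 called 31 genes of all and 12 of the 702, and edgeR after GC correction 11 of all and 6 of the 702. DESeq2 after GC correction called 122 genes of all. Leaving out 1 control or OO + PFA pig, edgeR called 0 to 7 genes (3 without C-71 and 7 without OP-105). After GC correction such fits called 2 to 25 genes (25 without OP-79). No OO pig was left out, so the dependence of this comparison on single OO pigs was not tested. Among PL titles 18 were called. The mean level of DHRS4 was 53.6 CPM in control, 627 in OO and 278 in OO + PFA. For NNAT the means were 0.154 CPM in control, 7.35 in OO and 1.97 in OO + PFA. CPT1A was at 73.4 CPM in control, 223 in OO and 194 in OO + PFA, a difference of -0.20 (SE 0.15) between the oil diets, and PMM1 at 9.22 CPM in control, 42 in OO and 43.6 in OO + PFA. The mean levels of TAT, IRS2, ULK1 and PFKFB3 lay further from control with OO + PFA than with OO. The means of TAT were 516 CPM in control, 787 in OO and 1382 in OO + PFA, and for IRS2 they were 2.11 CPM in control, 5.08 in OO and 14.6 in OO + PFA (adjusted p = 0.363 and 0.393 against OO). ULK1 was at 61.0 CPM in control, 88.6 in OO and 198 in OO + PFA and PFKFB3 at 63.2 CPM in control, 21.2 in OO and 7.39 in OO + PFA (adjusted p = 0.303 and 0.487). None of these differences was called.

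**Figure D5:**
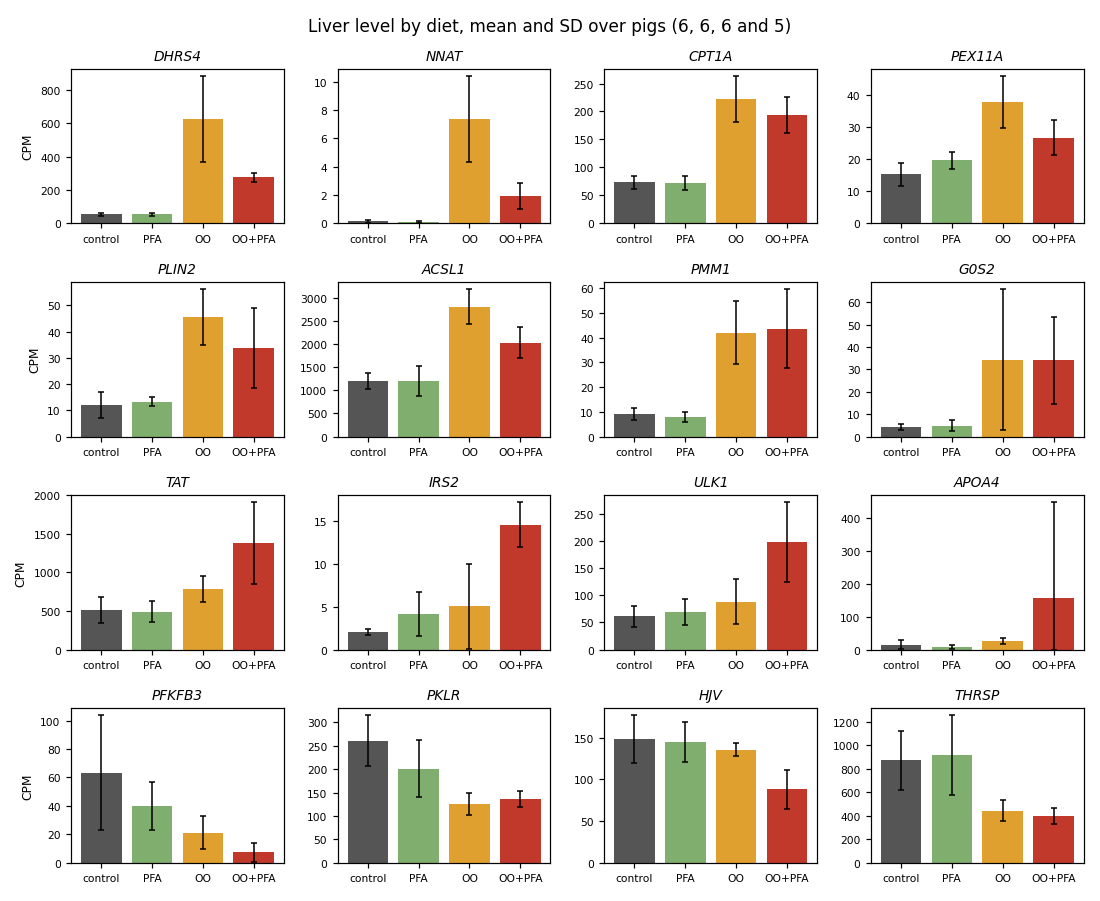
Mean level (y axis, CPM) of 16 genes in control, PFA, OO and OO + PFA livers, with SD over pigs as error bars cut at 0 (n = 6, 6, 6 and 5). DHRS4 and NNAT have their highest mean in OO, TAT, IRS2, ULK1 and APOA4 in OO + PFA, and PMM1 and G0S2 have similar means in both oil diets.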

How the data were processed

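Liver RNA from single piglets was sequenced as poly(A) libraries, and the authors deposited raw counts, whole numbers of read pairs per Ensembl gene, as 1 file per library and as 1 table of all liver libraries. The submitters' processing notes name STAR 2.6.1d, HTSeq and DESeq2 1.22.2 with Sscrofa11.1. The study's methods name another release of DESeq2. The libraries were stranded, but whether the counting used strand and which annotation release it used are not given in the sources used here, so reads of antisense or overlapping genes may not be told apart. The table holds 25880 genes. The summary lines of HTSeq stayed out of the library sizes. Read pairs on no gene were 10.42% to 19.02% of those on a gene or on none in OO + PFA and control libraries. Samples were grouped by source name.

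The counts were tested as deposited with edgeR 4.0.16 (R 4.3.3, limma 3.58.1), with filterByExpr, TMM scaling and the quasi-likelihood F-test in 1 fit of 4 diets over 23 liver libraries, without OP-77. P-values were adjusted by Benjamini-Hochberg over 13831 genes and called at 0.05. They measure the spread between pigs of 1 pen per diet. Between 21861728 and 42092064 read pairs were counted per library, and intervals on counts cover counting error only. Exonic GC content was computed from the RefSeq annotation of Sscrofa11.1 for 11096 tested genes (80.23%), and 11733 tested genes had a symbol. GC correction removed, in each library, a lowess curve (span 0.5) of centred log2 CPM (prior count 2) on GC through offsets. Promoter windows were read from the same genome. The fit, the GC correction and the permutation test were tested on simulated data. Tables were made with Python 3.11.15 and pandas 2.3.3.

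The 36 gene lists, the 9 marker lists and the genes named were chosen with earlier results of these data known. The rule named 119 genes, which were the 10 largest rises and falls and the 5 lowest p in each direction among called genes with a symbol, up to 4 called members of each list (up to 2 of lowest p where none was called), the 9 genes the study measured by qPCR in liver, and called genes among the 10 of lowest p after GC correction. Other genes named were chosen after their values were seen. Of 238 checks for pigs far from their diet, 12 stood out. Alternatives were DESeq2 1.42.0, other scaling and filters, GC correction, other samples or terms, and each control or OO + PFA pig left out. The ileum libraries were not used here. Some list members are counted but not reported by name here.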

Additional observations from a re-analysis of the deposited data

Results flagged for a closer look

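Among the genes named, 238 groups of pigs were checked for a pig far from the others of its diet, and 12 stood out, a share close to the 1 in 20 that chance gives. The widest gap in CPM was in APOA4, at 675.2 CPM in OP-137 where the next OO + PFA pig was at 47.66 CPM. The same pig was the highest for ITIH1, at 227.8 CPM. OP-79 was far below the other OO + PFA pigs for ELOVL2, at 27.36 CPM against 102.6 CPM, and above them for IER5L, at 2.557 CPM against 1.208 CPM. KLF2 was highest in OP-98, at 22.56 CPM where the next was at 13.89 CPM. FAM187B was lowest in OP-126, at 0.2641 CPM against 0.3868 CPM, and TAFA2 highest in OP-105, at 1.065 CPM against 0.6038 CPM.

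Among control pigs, C-80 was the lowest for RETSAT, at 101.8 CPM against 148.4 CPM, and for PRDX6, at 143.0 CPM against 177.4 CPM. C-80 was also the highest for NR1I2, at 241.7 CPM where the next control pig was at 173.4 CPM, and for PSME1, at 1.699 CPM against 1.215 CPM. HJV was highest in C-71, at 204.2 CPM against 146.4 CPM. C-80 had the highest shares of control pigs on its 10 top genes (34.84%, 25.16% to 28.07% in the others) and on no gene (19.02%, 11.48% to 15.62% in the others), and the part of these in its values was not tested.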

How the results depend on the processing

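The counts of higher and lower genes (565 of the 702 called were higher) moved to 928 and 442 with DESeq2 (52 lower at least 2-fold, against 20), to 1220 and 310 with all 24 libraries (883 and 35 at least 2-fold), and to 1377 and 313 with both diets fitted alone (739 and 34). Pigs with PigLiv titles gave 167 and 70 (130 higher at least 2-fold), and those with PL titles 11 and 1 (11 and 1 at least 2-fold). GC correction left 388 higher genes and gave 375 lower, with 152 and 39 at least 2-fold. Leaving out 1 pig at a time gave 140 to 575 higher and 46 to 150 lower genes, of which 117 to 460 and 11 to 31 were at least 2-fold. After GC correction such fits gave 206 to 330 higher and 154 to 349 lower genes, and DESeq2 587 lower. The last 2 checks and another smoothing span (386 and 320) were chosen after seeing the data. Against OO, the 0 calls among these genes became 12 with DESeq2 and 6 after GC correction. The GC slope difference of 0.30 was 0.23 to 0.34 without single pigs, and 0.35 in PigLiv pigs, where p was 0.0571 in a design whose smallest p is 0.0286. With the PL pigs alone, NNMT (-0.23), FABP3 (-0.14) and TXNRD1 (-0.062) reversed. Over all alternatives, the values of the named genes stayed on their side of the threshold 2239 times, lost a call 549 times, gained one 34 times and reversed 3 times. The cause of these changes was not tested. Depth limits the genes with few counts, such as PIWIL2. No paired analysis was possible because the diets share no pig number.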
